A study of Mus musculus with 7 samples.

Results

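Cytochrome P450 families 1 to 3 hold the enzymes with which liver oxidises drugs, toxins and steroids. The genes described here are those whose symbol begins with Cyp1, Cyp2 or Cyp3 followed by a subfamily letter and a number, with pseudogene symbols left out. The rule found 59 genes among 37468 rows, in 16 subfamilies. Of these, 48 reached an FPKM (fragments scaled by transcript length and by the number mapped) of 1 in at least 1 library and were tested, among 15744 genes tested in all. RNA had been taken from liver of C57BL/6 mice and sequenced in 7 libraries of 4 groups. Myod1_active is 1 library whose genotype label reads Myod1 active, and Myod1_control is 2 libraries labelled Myod1 Control. By the series' description both came from SunTag-dCas9 mice. SunTag is 2 libraries of SunTag-dCas9 mice and WT is 2 libraries of wild-type mice. The dCas9 protein is guided to a DNA site by an RNA but does not cut there. The SunTag, an array of short peptides fused to it, gathers effector proteins at that site. The sources used here give neither the means of Myod1 activation, nor the treatment of the controls, nor the promoter of SunTag-dCas9, nor the age and sex of the animals. They also do not say whether libraries of 1 group are separate animals. The p-values therefore reflect library-to-library spread alone, part of which may be technical.

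These enzymes sit in the membrane of the endoplasmic reticulum, carry a heme, and take electrons from P450 oxidoreductase, Por. Their genes respond to ligand-activated factors: AHR for Cyp1a1 and Cyp1a2, CAR (Nr1i3) for Cyp2b10, and PXR (Nr1i2) for Cyp3a11. In mouse liver many of them also differ between the sexes through the pattern of growth hormone release, and several are made mainly by the hepatocytes around the central vein.

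Myod1, the targeted gene, was at 3.52 FPKM in the Myod1_active library and listed at 0 in the other 6. The FPKM sums of the libraries lay between 1248035 and 1933860.3, read counts were unknown, and 12971 to 13804 genes per library reached an FPKM of 1. The X-inactivation transcript Xist was at 0.0042 FPKM in Myod1_active, at 0.324 and 0.0322 in Myod1_control, and between 56.9 and 82.2 in the SunTag and WT libraries. The Y-linked gene Eif2s3y was at 30.3 FPKM in Myod1_active, at 33.7 and 37.3 in Myod1_control, and at most 0.531 in SunTag and WT. The Y-linked genes Ddx3y, Uty and Kdm5d split the libraries the same way. These are the levels of male liver in the Myod1 libraries and of female liver in the SunTag and WT libraries, though the sources used here give no sex. The experiment and the sex of the animals therefore cannot be told apart between the Myod1 libraries and the others. Markers of other liver cells also stood lower in the Myod1 experiment. The summed FPKM of 10 endothelial markers was 40.8 in Myod1_active, 60.7 in each Myod1_control library, 203 to 212 in SunTag and 193 to 208 in WT. That of 9 Kupffer cell markers was 67.7 in Myod1_active, 61.6 to 68.8 in Myod1_control, 322 to 511 in SunTag and 301 to 383 in WT. That of 8 stellate cell markers was 28.0 in Myod1_active, 23.4 to 35.0 in Myod1_control, 98.5 to 174 in SunTag and 93.2 to 101 in WT. That of 6 lymphocyte markers was 1.05 in Myod1_active, 0.504 to 1.25 in Myod1_control, 8.49 to 13.8 in SunTag and 7.79 to 9.55 in WT. The 10 hepatocyte markers summed to 48183 FPKM in Myod1_active, 51227 to 52039.8 in Myod1_control, 72111 to 74396 in SunTag and 75304 to 85509 in WT. The 6 cholangiocyte markers summed to 80.0 FPKM in Myod1_active, 16.4 to 52.9 in Myod1_control, 21.8 to 32.0 in SunTag and 29.9 to 37.0 in WT. None of the listed markers with a row was at 0 in all libraries. In whole tissue, fewer cells of a type and less RNA per cell cannot be told apart.

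The promoters of the genes with the widest gaps are shown first, from RefSeq on GRCm38.p6, with 250 bases before the start and 50 after it. Cyp2b9 and Cyp2b13 are steroid hydroxylases, Cyp2c69 and Cyp2c40 belong to a group of fatty acid oxidising enzymes, Cyp2d9 hydroxylates testosterone, and Cyp2e1 oxidises ethanol and paracetamol. Capitals mark AGGTCA, the half-site of many nuclear receptors, or GTTAAT, a half-site of HNF1, on either strand. The windows are chr7:26173159-26173458 on the plus strand for Cyp2b9, chr7:26061245-26061544 plus for Cyp2b13, chr19:39886720-39887019 minus for Cyp2c69, chr19:39812765-39813064 minus for Cyp2c40, chr15:82452127-82452426 plus for Cyp2d9 and chr7:140763569-140763868 plus for Cyp2e1.
Cyp2b9: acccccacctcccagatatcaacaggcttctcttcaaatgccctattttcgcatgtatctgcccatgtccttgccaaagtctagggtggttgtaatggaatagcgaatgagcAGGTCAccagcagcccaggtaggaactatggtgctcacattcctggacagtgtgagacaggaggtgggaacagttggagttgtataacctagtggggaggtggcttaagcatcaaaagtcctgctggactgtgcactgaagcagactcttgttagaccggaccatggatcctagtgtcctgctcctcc
Cyp2b13: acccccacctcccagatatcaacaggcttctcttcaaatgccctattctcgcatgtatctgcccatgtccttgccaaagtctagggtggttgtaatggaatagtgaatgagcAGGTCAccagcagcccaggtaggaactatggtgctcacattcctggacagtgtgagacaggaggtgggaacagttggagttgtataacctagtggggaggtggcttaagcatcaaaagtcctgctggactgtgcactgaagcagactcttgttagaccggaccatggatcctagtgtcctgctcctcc
Cyp2c69: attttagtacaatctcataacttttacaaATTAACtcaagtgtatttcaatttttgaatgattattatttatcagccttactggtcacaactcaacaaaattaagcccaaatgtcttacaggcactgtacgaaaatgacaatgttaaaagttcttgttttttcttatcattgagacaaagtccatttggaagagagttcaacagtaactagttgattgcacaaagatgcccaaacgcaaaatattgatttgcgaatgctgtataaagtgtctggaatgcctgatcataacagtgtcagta
Cyp2c40: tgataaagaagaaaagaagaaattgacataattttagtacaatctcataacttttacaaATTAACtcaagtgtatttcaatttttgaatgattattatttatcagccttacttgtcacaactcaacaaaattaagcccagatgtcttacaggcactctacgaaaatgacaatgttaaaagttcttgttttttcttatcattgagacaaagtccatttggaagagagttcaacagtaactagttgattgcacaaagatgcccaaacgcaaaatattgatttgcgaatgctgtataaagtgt
Cyp2d9: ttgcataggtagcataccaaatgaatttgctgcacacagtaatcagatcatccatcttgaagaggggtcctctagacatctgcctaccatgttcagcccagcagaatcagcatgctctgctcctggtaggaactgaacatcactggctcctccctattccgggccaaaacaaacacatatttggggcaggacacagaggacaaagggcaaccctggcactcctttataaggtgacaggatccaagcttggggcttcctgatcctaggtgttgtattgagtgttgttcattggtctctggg
Cyp2e1: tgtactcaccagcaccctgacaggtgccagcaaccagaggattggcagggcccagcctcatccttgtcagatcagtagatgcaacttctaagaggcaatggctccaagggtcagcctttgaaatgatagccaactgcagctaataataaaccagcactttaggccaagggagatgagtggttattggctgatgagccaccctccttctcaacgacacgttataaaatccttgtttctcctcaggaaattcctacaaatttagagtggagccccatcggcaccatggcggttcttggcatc

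The Cyp2b9 and Cyp2b13 windows differed at 2 of 300 bases. The Cyp2c69 and Cyp2c40 windows, whose annotated starts lie 30 bases apart along the copied sequence, differed at 3 of the 270 bases they share. A RefSeq promoter was found for 52 of the 59 genes. Of these, 18 held AGGTCA on either strand, which is 34.6%, against 16.2% of 32544 promoters of the same length. GTTAAT was found in 6 of them, 11.5%, against 7.13% of all promoters. TTCNNNGAA, the palindrome bound by STAT factors, was found in 2 of them, Cyp2j11 and Cyp2j12, or 3.85%, against 8.33% of all promoters. GCGTG, the core of the AHR element, was found in 9, Cyp1a1 among them, or 17.3%, against 32.6% of all promoters. For all 4 motifs a member counted if any of its listed starts held the letters, while each distinct sequence among the 32544 promoters counted once. Near copies such as Cyp2b9 and Cyp2b13 counted separately, so the shares are not strictly alike. The Cyp2d9 and Cyp2e1 windows held none of the 4 motifs, which says only that these letters are absent there.

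The 59 genes lay on mm9 in 6 clusters of 2 or more and at 7 single positions. The longest cluster, chr7:26587494-27943687, held 13 of them: the Cyp2a and Cyp2b genes, Cyp2f2, Cyp2g1, Cyp2s1 and Cyp2t4. The Cyp2c cluster, chr19:39081509-40261823, held the most, 14. The Cyp2d cluster at chr15:82200958-82624675 and the Cyp3a cluster at chr5:146106148-146924861 held 8 each, and the Cyp2j cluster at chr4:95694225-96330845 held 7. Cyp1a1 and Cyp1a2 lay together at chr9:57524744-57551629, and Cyp2e1 alone at chr7:147949638-147960874.

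Together the 59 genes summed to 6831 FPKM in Myod1_active, 10149 and 10058 in Myod1_control, 8797 and 10228 in SunTag, and 11725 and 10429 in WT. The Myod1_active library had the lowest sum of the 7, and the first SunTag library the next. Cyp2e1 was the most abundant of them in every library, at 1203 FPKM in Myod1_active, 2896 and 3045 in Myod1_control, 1317 and 2501 in SunTag, and 2692 and 2444 in WT. It made up 17.6% of the sum in Myod1_active, 28.5% and 30.3% in Myod1_control, 15.0% and 24.5% in SunTag, and 23.0% and 23.4% in WT. The 10 most abundant members of each library took 62.9% to 78.8% of its sum. Between 43 and 47 members reached an FPKM of 1 in a library, and between 16 and 27 reached 100.

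**Figure D1:**
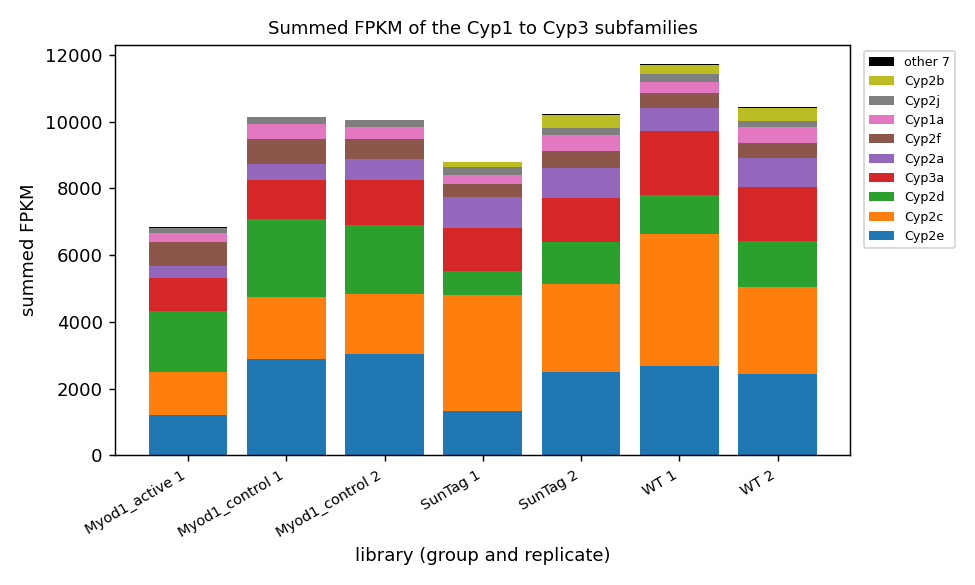
Summed FPKM (vertical axis, linear from 0) of the Cyp1 to Cyp3 subfamilies in each of the 7 libraries (horizontal axis), with 1 colour per subfamily and the 7 subfamilies of lowest level joined as other. The Myod1_active bar reaches 6831 FPKM, against 10149 and 10058 in Myod1_control, and Cyp2d takes more and Cyp2b and Cyp2c less of the bars of the Myod1 experiment than of the SunTag and WT bars.

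The libraries of the 2 experiments ranked the Cyp2c and Cyp2d subfamilies differently. Cyp2d, 8 genes, summed to 1847 FPKM in Myod1_active, 2337 and 2070 in Myod1_control, 726 and 1261 in SunTag, and 1178 and 1392 in WT. Cyp2c, 15 genes, summed to 1286 FPKM in Myod1_active, 1846 and 1791 in Myod1_control, 3499 and 2647 in SunTag, and 3935 and 2604 in WT. Cyp2d exceeded Cyp2c in all 3 libraries of the Myod1 experiment, and Cyp2c exceeded Cyp2d in all 4 SunTag and WT libraries. Cyp3a, 9 genes, summed to 972 FPKM in Myod1_active, 1184 and 1340 in Myod1_control, 1280.5 and 1307 in SunTag, and 1927 and 1615 in WT. The most abundant Cyp3a gene in every library was Cyp3a11, the main drug-oxidising Cyp3a of mouse liver, at 684 FPKM in Myod1_active, 794 and 856 in Myod1_control, 747 and 466 in SunTag, and 584 and 729 in WT. Its range overlapped between SunTag and WT.

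Cyp2f2, which activates naphthalene and marks periportal hepatocytes, was at 721 FPKM in Myod1_active, 766 and 615 in Myod1_control, 392 and 508 in SunTag, and 446 and 459 in WT. Cyp1a2, which oxidises caffeine and is made around the central vein, was at 261 FPKM in Myod1_active, 426 and 347 in Myod1_control, 261 and 486 in SunTag, and 339 and 475 in WT. Its neighbour Cyp1a1, the classical AHR target, stayed between 2.11 and 5.45 FPKM in all 7 libraries. Cyp2c70, which makes muricholic acids, lay between 327 and 578 FPKM in all libraries. Cyp2j5, an epoxygenase of arachidonic acid, lay between 134 and 217 FPKM.

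The remaining tested genes included several with roles outside drug metabolism and low levels here. Cyp2r1, a vitamin D hydroxylase, lay between 7.16 and 10.2 FPKM in all libraries. Cyp2u1, a fatty acid hydroxylase, was at 9.17 FPKM in Myod1_active, 8.21 and 7.02 in Myod1_control, 4.10 and 1.63 in SunTag, and 2.1 and 1.69 in WT. Cyp2g1, known from olfactory tissue, and Cyp2s1, known from epithelia outside the liver, stayed at or below 3.20 and 2.12 FPKM. The 11 members that were not tested were Cyp1b1, Cyp2b19, Cyp2b23, Cyp2c65, Cyp2c66, Cyp2j8, Cyp2j11, Cyp2j12, Cyp2j13, Cyp2t4 and Cyp2w1. The highest value among them was 0.915 FPKM, for Cyp2b23 in the second SunTag library, and Cyp2j11 was listed at 0 in all 7 libraries.

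**Figure D2:**
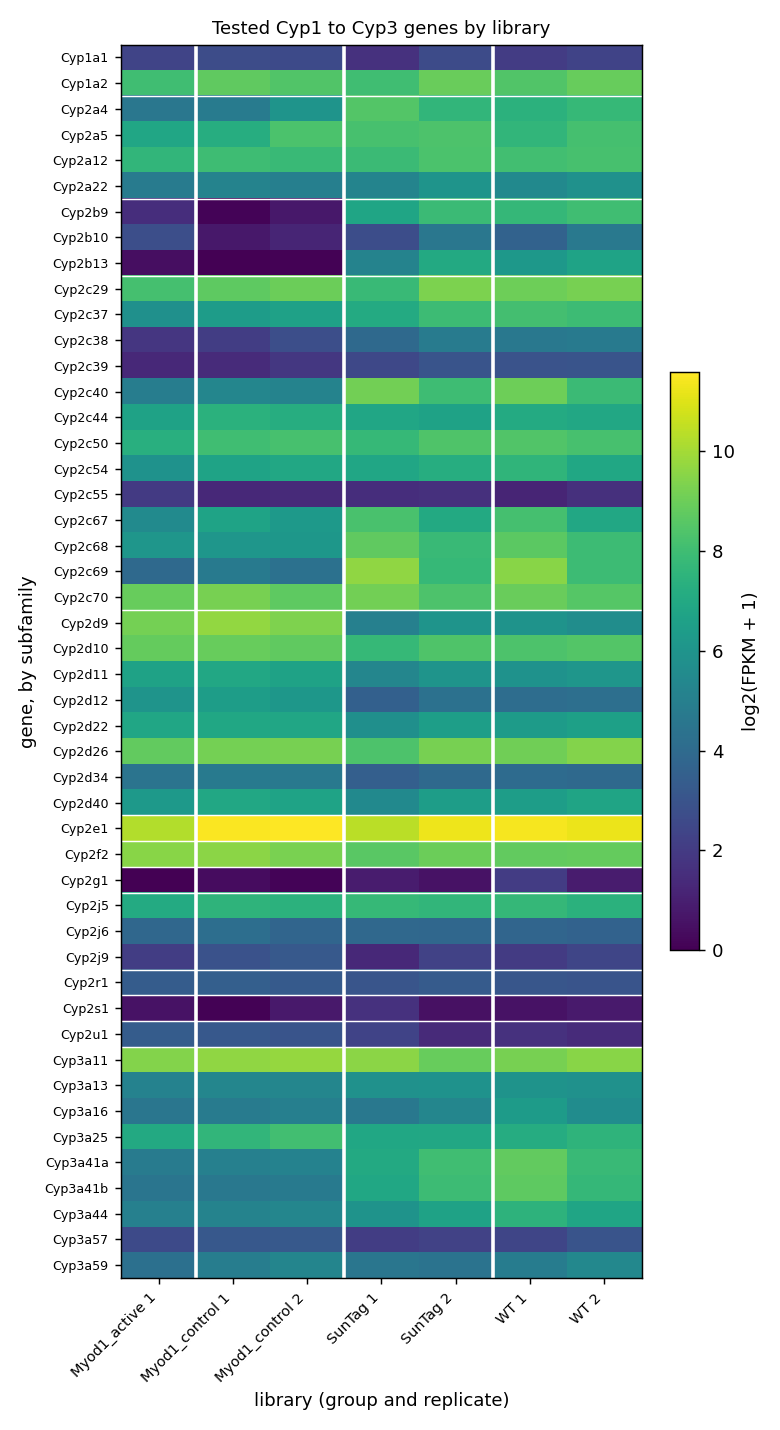
Heat map of log2(FPKM + 1) (colour scale) for the 48 tested Cyp1 to Cyp3 genes (rows, in subfamily order) in the 7 libraries (columns), with white lines between subfamilies and between groups. Cyp2e1 is the brightest row in every column, and Cyp2b9, at most 1.87 FPKM in the Myod1 experiment, is at 109.8 FPKM or more in the SunTag and WT columns.

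Many of these genes are near copies of each other, which limits how far single values can be read. By the coding sequences of the GENCODE vM21 annotation, 24 of the 59 share at least 20% of their 50-base words with another gene. Cyp3a41a and Cyp3a41b were 99.9% identical, Cyp2a4 and Cyp2a5 98.4%, Cyp2c67 and Cyp2c69 97.7%, and Cyp2b9 and Cyp2b13 92.7%. Their values depend on how the counting divided shared reads, which the sources used here do not give. The last 90 coding bases of 4 Cyp2c genes are shown because these genes moved together across libraries. Capitals mark bases that differ from Cyp2c69.
Cyp2c69: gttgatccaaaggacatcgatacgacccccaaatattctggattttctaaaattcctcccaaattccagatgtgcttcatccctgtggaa
Cyp2c40: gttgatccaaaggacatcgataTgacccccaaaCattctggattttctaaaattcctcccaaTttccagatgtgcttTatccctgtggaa
Cyp2c67: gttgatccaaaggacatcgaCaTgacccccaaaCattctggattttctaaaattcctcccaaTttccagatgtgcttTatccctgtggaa
Cyp2c68: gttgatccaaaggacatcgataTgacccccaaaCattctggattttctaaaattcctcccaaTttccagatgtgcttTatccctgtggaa

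Cyp2c40 and Cyp2c68 each differed from Cyp2c69 at 4 of these 90 bases, and Cyp2c67 at 5. Of the 59 members, 9 were overlapped by another row of the tables, such as Cyp2b13 by Gm8946, Cyp2f2 by Gm15883 and Cyp3a13 by Gm15502. The sources used here do not say whether counting used strand, so reads of such pairs cannot be told apart.

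The comparison of Myod1_active with Myod1_control asked how these enzymes stood in liver in which Myod1 had been activated. Most stood lower relative to the median gene, and none passed the test. The median gene was higher in Myod1_active by 0.25 on the log2(FPKM + 1) scale, and log2 differences are given relative to it, while SE, p and calls come from limma's fit before that shift. Of the 48 tested genes, 44 lay below the median gene and 4 above it, with a median of -0.56, where the median over all genes is 0 by construction. The adjusted p was under 0.05 for 0 of 48, against 0.254% of all 15744 genes, 0.216% higher and 0.0381% lower, and the lowest adjusted p among the 48 was 0.197. Without adjustment, p was under 0.05 for 7 of 48, against 19.5% of all genes. Those were Cyp2c44, Cyp2c50, Cyp2c54, Cyp2c55, Cyp2e1, Cyp3a25 and Cyp3a59. The Myod1_active value was below both Myod1_control values for 35 of 48 genes, against 16.6% of all genes, and above both for 5, against 61.4%. With 1 Myod1_active library the test takes its spread from the other groups, and the SE of a member ran from 0.138 to 0.996.

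Cyp2e1 had the most negative difference of the 48, with 1203 FPKM in Myod1_active against 2971 ± 106 FPKM in Myod1_control (SD, n = 2). Its log2 difference was -1.56 (SE 0.403, adjusted p = 0.209), between -1.62 and -1.16 across the alternatives. The first SunTag library, at 1317 FPKM, was close to Myod1_active. At least 2-fold lower relative to the median gene were 9 of the 48, against 4.02% of all genes. Beside Cyp2e1 these were Cyp2a4, Cyp2a5, Cyp2c50, Cyp2c54, Cyp2c67, Cyp2j9, Cyp3a25 and Cyp3a59. Cyp2c54, an epoxygenase, was at 57.9 FPKM in Myod1_active against 103 and 122 in Myod1_control, a log2 difference of -1.19 (SE 0.354, adjusted p = 0.249). Cyp3a25 was at 129 FPKM in Myod1_active against 197 and 271 in Myod1_control, a log2 difference of -1.09 (SE 0.273, adjusted p = 0.219). Cyp2c44 was at 99.7 FPKM in Myod1_active against 167 and 146 in Myod1_control, a log2 difference of -0.89 (SE 0.185, adjusted p = 0.197). The Myod1_active value of each of these genes lay outside the range of its controls, and none of them passed the test.

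All 7 listed pericentral members lay below the median gene, but so did 44 of all 48 tested members. The median of the 7 was -1.08, against -0.56 for the 48, and 0 of 7 passed the test. The count alone therefore does not set the 7 apart. Summed, they had 2129 FPKM in Myod1_active against 4329.8 and 4722 in Myod1_control. The sums were 2571 and 4673 FPKM in SunTag and 4556 and 4440.2 in WT, so the first SunTag library was also low. The 7 listed pericentral genes outside these families had a median of -0.35, and 5 of them lay below the median gene. The glutamine synthetase gene Glul was at 268 FPKM in Myod1_active against 326 and 360 in Myod1_control, 156 and 356 in SunTag, and 406 and 363 in WT. On the same list 2 genes lay above the median gene. Rhbg was at 21.5 FPKM in Myod1_active against 14.0 and 15.0 in Myod1_control, and Oat at 244 against 188 and 221. Periportal Cyp2f2, at 721 FPKM, lay within the range of its controls. Periportal genes outside these families, 8 tested, were split 4 and 4 around the median gene, and their median difference was -0.14. Pck1, with the most negative difference, was at 209.7 FPKM in Myod1_active against 636 and 403 in Myod1_control (log2 difference -1.52). Ass1, with the highest, was at 2626 FPKM in Myod1_active against 1514 and 1580 in Myod1_control (log2 difference 0.51). The ratio of Cyp2f2 to Cyp2e1 was 0.599 in Myod1_active, against 0.265 and 0.202 in Myod1_control, and between 0.166 and 0.298 in SunTag and WT.

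Of the 6 members listed as inducible by CAR or PXR, 2 lay above the median gene, Cyp2b10 and Cyp2c55. The other 4, Cyp2a5, Cyp2c29, Cyp2c37 and Cyp3a11, lay below it, and the list had a median of -0.73. At least 2-fold higher relative to the median gene was 1 of the 48, against 3.11% of all genes. It was Cyp2b10, the classical CAR target, at 5.85 FPKM in Myod1_active against 0.688 and 1.29 in Myod1_control. Its log2 difference of 1.55 did not pass the test (SE 0.856, adjusted p = 0.311), and its Myod1_active value lay below 3 of the 4 SunTag and WT values, which ran from 5.69 to 24.8 FPKM. Cyp2b9 was at 1.87 FPKM in Myod1_active against 0.0811 and 0.663 in Myod1_control, and the summed Cyp2b genes at 8.17 against 0.891 and 1.98 FPKM (log2 difference 1.69, SE 0.632, adjusted p = 0.218). Cyp2c55, another CAR and PXR target, was at 2.96 FPKM in Myod1_active against 1.53 and 1.60 in Myod1_control (log2 difference 0.37, SE 0.218, adjusted p = 0.234).

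**Figure D3:**
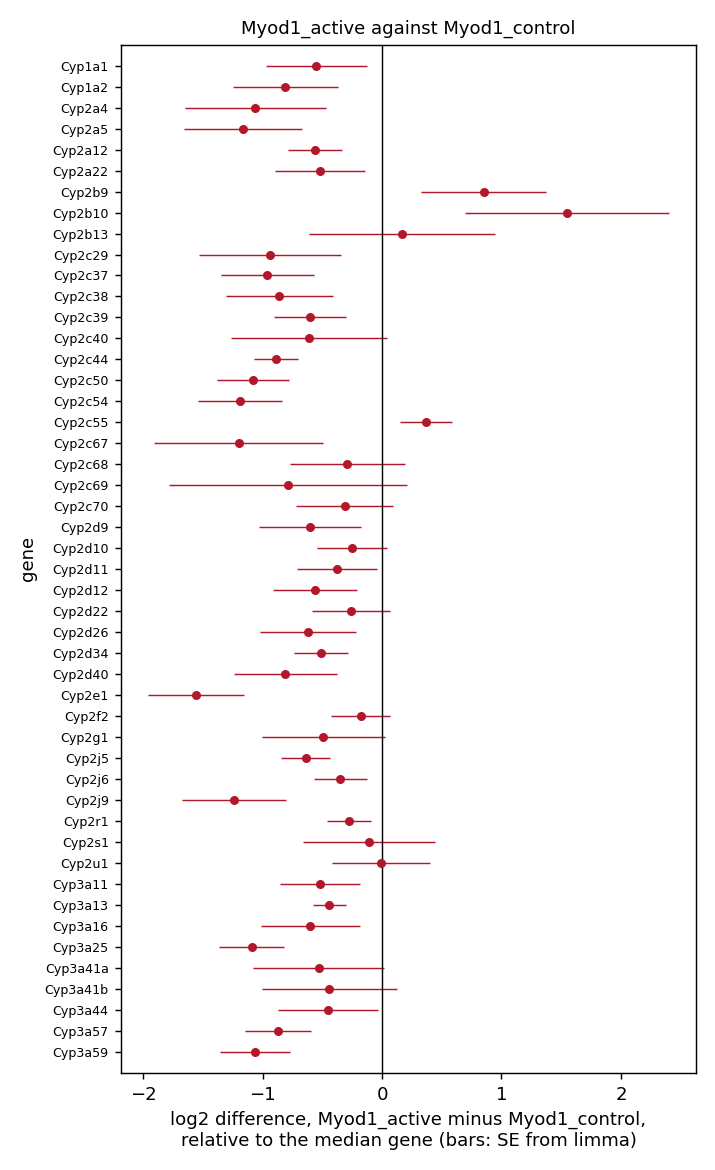
Log2 difference of each of the 48 tested Cyp1 to Cyp3 genes, Myod1_active minus Myod1_control, relative to the median gene (horizontal axis, bars are limma's SE). The points run from -1.56 for Cyp2e1 to 1.55 for Cyp2b10, 44 lie left of 0, and none passed the test.

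Of 23 tested regulators of Cyp genes, 17 lay below the median gene and 0 passed the test in this comparison. Nr1i3, the gene of CAR, was at 16.8 FPKM in Myod1_active against 55.1 and 94.5 in Myod1_control, 34.5 and 93.8 in SunTag, and 81.5 and 108 in WT. Its lowest libraries, Myod1_active and the first SunTag library, were those in which Cyp2e1 was lowest. This was not particular to Cyp2e1. Of the 7 libraries, Myod1_active was lowest for 23 of the 48 members, against 7.37% of all genes. The first SunTag library was lowest for 15, against 19.2% of all genes. A link between Nr1i3 and Cyp2e1 was not tested. The log2 difference of Nr1i3 between Myod1_active and Myod1_control was -2.30 (SE 0.662, adjusted p = 0.219). Nr1i2, the gene of PXR, was at 16.5 FPKM in Myod1_active against 19.5 and 23.1 in Myod1_control. Hnf4a, a hepatocyte factor, was at 120 FPKM in Myod1_active against 150 and 181 in Myod1_control, and Ahr had a log2 difference of -0.19 (SE 0.165, adjusted p = 0.865). Of 14 tested genes of redox partners and heme turnover, 7 lay on each side of the median gene and 0 passed the test. Por was at 172 FPKM in Myod1_active against 163 and 176 in Myod1_control. Of 14 tested CAR and PXR targets outside the Cyp families, 6 lay above and 8 below the median gene, and 0 passed. Of 3 tested AHR targets outside the Cyp families 2 lay above it, and 0 passed.

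Of 6 female-biased liver genes outside these families 3 lay above and 3 below the median gene in this comparison, with a median of 0.03. They were near 0, summing to 1.91 FPKM in Myod1_active against 0.456 and 1.16 in Myod1_control. Of the 10 female-biased members 3 lay above and 7 below it, with a median of -0.49. The male-biased liver genes outside these families all lay lower in Myod1_active, 8 of 8 below the median gene. Their median was -1.53, and 0 passed the test. The fatty acid elongase gene Elovl3 was at 63.9 FPKM in Myod1_active against 380 and 287 in Myod1_control (log2 difference -2.60, SE 0.227, adjusted p = 0.0584). Cyp2d9, the male-biased member, was at 575 FPKM in Myod1_active against 829 and 645 in Myod1_control, a log2 difference of -0.60 (SE 0.428, adjusted p = 0.666). All 10 endothelial markers lay below the median gene in the same comparison, their median at -0.76, and the 10 hepatocyte markers had a median of -0.23, with 7 below. The median gene also lay above 7 of 9 Kupffer cell markers (median -0.30) and 6 of 8 stellate cell markers (median -0.33). For tested lymphocyte markers 4 of 5 lay below (median -0.25), and for tested cholangiocyte markers 3 of 5 (median -0.11). The part of other cell types in the lower Cyp levels was not tested.

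SunTag livers were compared with WT livers to see whether carrying the SunTag-dCas9 system went with other levels of these enzymes. No member passed the test. The adjusted p was 1 for all 48, against 0.127% of all genes called, 0.0508% higher and 0.0762% lower. Without adjustment p was under 0.05 for 2 of 48, Cyp3a16 and Cyp3a59, against 1.95% of all genes. For 38 of the 48 the value was below the median gene, with the median member at -0.27 and a range from -1.04 to 0.44. This lean rested on the first SunTag library. Without it the median was -0.01 with 24 of 47 below, and without the second SunTag library it was -0.57 with 35 of 48 below. The first SunTag library was the lowest of the 4 for 31 of 48 members, against 30.7% of all genes. The median SE of a member was 0.33 and the highest 0.813. Even Cyp3a16, at -1.04 with an SE of 0.340, did not pass, so differences well above 1 SE could go undetected here.

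The most negative differences were in Cyp3a. Cyp3a16, known from fetal liver, was at 23.6 and 38.9 FPKM in SunTag against 80.4 and 48.9 in WT (log2 difference -1.04, SE 0.340, adjusted p = 1). It was the 1 member at least 2-fold lower relative to the median gene, against 1.58% of all genes, and 0 members were at least 2-fold higher, against 1.58% of all genes. Cyp3a44 was at 59.7 and 100.4 FPKM in SunTag against 175 and 109.6 in WT (log2 difference -0.85, SE 0.342, adjusted p = 1). For both genes the groups did not overlap. Below both WT values in both SunTag libraries were 7 of 48 members, against 12.8% of all genes, and above both WT values were 2, Cyp2a5 and Cyp2j6, against 13% of all genes. The near-identical Cyp3a41a and Cyp3a41b had 130.2 and 258 FPKM and 119.8 and 239.8 FPKM in SunTag, against 438 and 227 FPKM and 414 and 208 FPKM in WT, and these groups overlapped. All Cyp3a genes together had 1294 ± 19.1 FPKM in SunTag and 1771 ± 221 in WT (SD, n = 2 each), a log2 difference of -0.46 (SE 0.165, adjusted p = 1). Cyp2e1 had 1317 and 2501 FPKM in SunTag against 2692 and 2444 in WT, so its lower mean came from 1 library. In the first SunTag library the Kupffer cell markers summed to 511 FPKM and the stellate cell markers to 174, the highest sums of the 7 libraries, and their part in its lower Cyp values was not tested.

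Myod1_control and SunTag livers are both from SunTag-dCas9 mice by the series' description. They differ in experiment and, by their Xist and Y-linked transcripts, in sex, which cannot be told apart here. Members called between the 2 groups lay in both directions. Of the 48 members, 17 passed the test, against 24.3% of all 15744 genes, so the share of members called, 6 higher and 11 lower, has to be read beside 7.3% and 17% of all genes called in each direction. Higher in Myod1_control were Cyp2d9, Cyp2d11, Cyp2d12, Cyp2d34, Cyp3a25 and Cyp3a57. Lower were Cyp2a4, Cyp2b9, Cyp2b13, Cyp2c38, Cyp2c39, Cyp2c40, Cyp2c68, Cyp2c69, Cyp3a13, Cyp3a41a and Cyp3a41b. Without adjustment, p was under 0.05 for 27 of 48, against 41.7% of all genes. Both Myod1_control values lay above both SunTag values for 16 members, against 24.9% of all genes, and below both for 19, against 41.6%. Relative to the median gene 8 members were at least 2-fold higher and 11 at least 2-fold lower, against 7.15% and 9.9% of all genes. The median gene was at -0.14 in this comparison, and the median member at 0.11 relative to it.

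Cyp2b9 was at 0.0811 and 0.663 FPKM in Myod1_control against 109.8 and 237 in SunTag, and at 208 and 260.2 in WT. Its log2 difference was -6.79 (SE 0.431, adjusted p = 0.00807), the most negative of the members. Its copy Cyp2b13 was at 0 and 0.0324 FPKM in Myod1_control against 34.8 and 131 in SunTag (log2 difference -5.95, SE 0.635, adjusted p = 0.0157). Since Myod1_control was near 0 for both genes, these sizes depend on the pseudocount and give no fold. Across the 16 alternatives the difference of Cyp2b13 lay between -9.02 and -5.01 with an adjusted p of up to 0.0812, and it passed in 11 of them. That of Cyp2b9 lay between -8.59 and -6.24 with an adjusted p of up to 0.0638. The promoters of this pair are the first sequences above. Cyp2b10 was at 0.688 and 1.29 FPKM in Myod1_control against 5.69 and 22.9 in SunTag, with an adjusted p of 0.0504. The summed Cyp2b genes fell to 1.44 ± 0.772 FPKM in Myod1_control, against 272 ± 171 in SunTag (SD, n = 2 each). Their log2 difference was -6.55 (SE 0.516, adjusted p = 0.0129).

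Within Cyp2c, Cyp2c69 was at 25.1 and 18.9 FPKM in Myod1_control against 815 and 217 in SunTag (log2 difference -4.07, SE 0.813, adjusted p = 0.0288). Cyp2c40 was at 39.2 and 35.2 FPKM in Myod1_control against 559 and 249 in SunTag (log2 difference -3.16, SE 0.531, adjusted p = 0.0229). Cyp2c68 was at 66.4 and 69.0 FPKM in Myod1_control against 430.3 and 229.9 in SunTag (log2 difference -2.06, SE 0.395, adjusted p = 0.0259). Cyp2c67, which shares most sequence with Cyp2c69, was at 105 and 76.4 FPKM in Myod1_control against 308 and 128 in SunTag and did not pass (log2 difference -1.01, SE 0.579, adjusted p = 0.202). The 4 genes together had 236 and 199 FPKM in Myod1_control against 2112 and 824 in SunTag, while the other Cyp2c genes together had 1610.1 and 1591 against 1388 and 1823, which overlapped. The summed Cyp2c subfamily did not pass (log2 difference -0.61, SE 0.267, adjusted p = 0.102).

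Cyp2a4, a testosterone hydroxylase, was at 27.1 and 61.6 FPKM in Myod1_control against 354 and 196 in SunTag (log2 difference -2.52, SE 0.481, adjusted p = 0.0261). Its near copy Cyp2a5, a coumarin hydroxylase, was at 149 and 313 FPKM in Myod1_control against 297 and 328 in SunTag and did not pass (log2 difference -0.39, SE 0.403, adjusted p = 0.367). Cyp3a41a was at 31.9 and 33.5 FPKM in Myod1_control against 130.2 and 258 in SunTag (log2 difference -2.32, SE 0.449, adjusted p = 0.0267), and Cyp3a41b at 23.5 and 25.9 against 119.8 and 239.8 (log2 difference -2.60, SE 0.462, adjusted p = 0.0242). Since this pair is almost identical in coding sequence, its 2 calls are not independent. Cyp3a13, which is also made in the intestine, was at 38.6 and 38.3 FPKM in Myod1_control against 57.0 and 58.9 in SunTag (log2 difference -0.44, SE 0.113, adjusted p = 0.0292).

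On the other side, Cyp2d9 was at 829 and 645 FPKM in Myod1_control against 32.0 and 61.6 in SunTag, and at 60.9 and 49.3 in WT. Its log2 difference was 4.15 (SE 0.349, adjusted p = 0.014), the highest of the members. Cyp2d12 was at 86.3 and 69.8 FPKM in Myod1_control against 10.8 and 19.0 in SunTag (log2 difference 2.49, SE 0.285, adjusted p = 0.0176). Cyp2d10, which lies beside Cyp2d9 in the cluster, was at 472 and 430 FPKM in Myod1_control against 216 and 333 in SunTag and did not pass (log2 difference 0.88, SE 0.239, adjusted p = 0.0795). The ratio of Cyp2d9 to Cyp2d10 was 1.27 in Myod1_active and 1.75 and 1.5 in Myod1_control, against 0.148 and 0.185 in SunTag and 0.187 and 0.138 in WT. The summed Cyp2d genes rose to 2203 ± 189 FPKM in Myod1_control, against 993 ± 378 in SunTag (SD, n = 2 each). Their log2 difference was 1.34 (SE 0.301, adjusted p = 0.047). Cyp3a25 was at 197 and 271 FPKM in Myod1_control against 118 and 121 in SunTag (log2 difference 1.08, SE 0.223, adjusted p = 0.042). Cyp2e1, at 2896 and 3045 FPKM in Myod1_control against 1317 and 2501 in SunTag, did not pass (log2 difference 0.85, SE 0.329, adjusted p = 0.17).

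**Figure D4:**
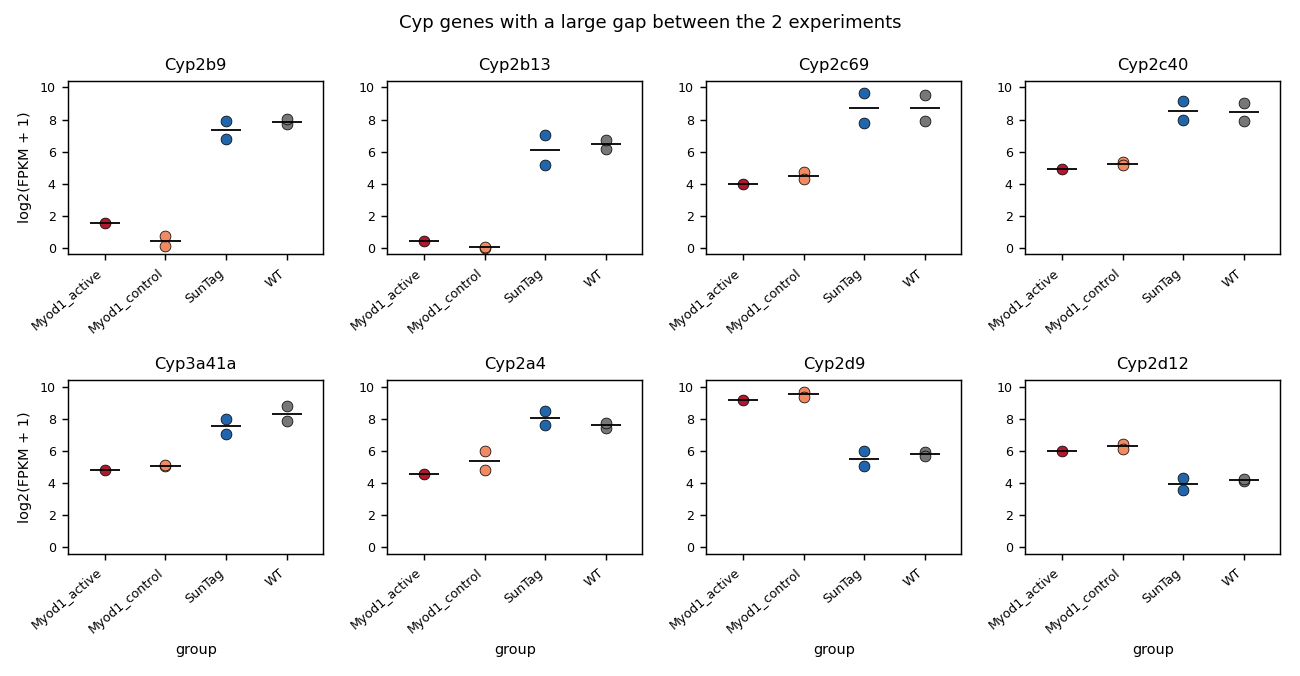
Log2(FPKM + 1) (vertical axes, from 0) of 8 Cyp genes in the 4 groups (horizontal axes), with 1 point per library and a line at the group's mean. Cyp2b9, Cyp2b13, Cyp2c69, Cyp2c40, Cyp3a41a and Cyp2a4 are lower and Cyp2d9 and Cyp2d12 higher in both groups of the Myod1 experiment than in SunTag and WT, with no overlap.

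The counts called on the lists below have to be read beside 7.3% of all genes called higher and 17% called lower in Myod1_control against SunTag. Members known as female-biased in mouse liver made up most of the lower group. Of the 10 on that list, 7 were lower in Myod1_control and 0 higher, with a median of -2.57, and the list summed to 209 and 246 FPKM in Myod1_control against 2211 and 1691 in SunTag. Cyp2d9, the only member on the male-biased list, was higher. The sex-biased lists outside these families went the same ways. Since all lists were chosen with earlier results of these data known, they give no independent support. Of 8 male-biased liver genes 6 were higher and 0 lower, with a median of 4.51, and of 6 female-biased liver genes 4 were lower and 0 higher, with a median of -4.97. The pericentral members had 0 of 7 called, with a median of 0.17. Of 23 regulators 5 were higher, Foxa1, Foxa2, Ppara, Stat5a and Stat5b, and 0 lower. Stat5b, which carries the growth hormone signal, was at 21.8 and 19.2 FPKM in Myod1_control against 13.3 and 12.7 in SunTag (log2 difference 0.75, SE 0.128, adjusted p = 0.0329). Of 14 genes of redox partners and heme turnover 3 were higher, Cpox, Por and Ppox, and 0 lower. Por was at 163 and 176 FPKM in Myod1_control against 103 and 105 in SunTag (log2 difference 0.84, SE 0.134, adjusted p = 0.0284). Of 14 CAR and PXR targets outside the Cyp families 2 were higher and 4 lower, and of 3 AHR targets 0 were called. Among markers of other cell types, 9 of 10 endothelial, 7 of 9 Kupffer cell, 4 of 8 stellate cell and 5 of 5 tested lymphocyte markers were lower in Myod1_control, with no marker on these 4 lists higher. Of 5 tested cholangiocyte markers 1 was higher and 1 lower. Sox9 was at 5.96 and 7.78 FPKM in Myod1_control against 1.38 and 2.83 in SunTag (log2 difference 1.51, SE 0.268, adjusted p = 0.0294), and Krt7 at 0.0679 and 0.0714 FPKM in Myod1_control against 1.54 and 0.966 in SunTag (log2 difference -0.93, SE 0.221, adjusted p = 0.0328). Of 10 hepatocyte markers 2 were lower. The part of these cells in the differences was not tested.

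The number of calls depended on single libraries and on scaling. With the first or the second WT library left out, which belong to neither group but inform the spread, 0 members passed and 59 and 58 genes passed in all. Without the first Myod1_control library 0 members and 127 genes passed, and without the second 1 member, Cyp2b9, and 126 genes. Without the first SunTag library 6 members and 918 genes passed, and without the second 19 members and 4070 genes. Each of these removes 1 of 3 residual degrees of freedom. The direction of all 17 calls was kept in each of 16 alternatives, and Cyp2b9 passed in 13 of them and Cyp2d9 in 12. With libraries scaled by the median ratio of genes, 1820 genes were higher and 1750 lower, against 1149 and 2683 as given, and the members called were 10 higher and 9 lower, 15 of them among the 17. With quantile normalization 1757 genes were higher and 1764 lower, and the members called were 9 and 9.

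Within SunTag and within WT, the libraries differed in a group of neighbouring Cyp2c genes. Cyp2c69 was at 815 FPKM in the first and 217 in the second SunTag library, and at 740.1 and 240.2 in the first and second WT library. Cyp2c40 was at 559 and 249 FPKM in SunTag and at 522 and 238 in WT, and Cyp2c67 at 308 and 128 in SunTag and at 282 and 123 in WT. On the log2(FPKM + 1) scale these 3 were at least 2-fold higher in library 1 than in library 2 of both groups, as were 0.407% of all genes. Cyp2c68 was 1.87-fold higher in SunTag and 1.71-fold higher in WT. These 4 genes lie within the Cyp2c cluster at chr19:39683332-39961259 on mm9 and share much of their coding sequence. Summed, they had 2112 and 824 FPKM in SunTag and 1953 and 842 in WT, against 155 in Myod1_active and 236 and 199 in Myod1_control. The other Cyp2c genes together had 1388 and 1823 FPKM in SunTag and 1982 and 1762 in WT, with no common direction.

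Cyp2b10 went the other way, at 5.69 and 22.9 FPKM in SunTag and 11.3 and 24.8 in WT, a difference of at least 2-fold shared by 0.254% of all genes. Of the listed genes outside these families, A1bg, Cux2, Hsd3b5, Slco1a1 and Sult3a1 were at least 2-fold higher in library 1 of both groups, and Sult2a1 at least 2-fold lower. All 6 are on the male- or female-biased lists. Of 6 female-biased genes 3 were higher and 1 lower, and of 8 male-biased genes 2 were higher and 0 lower, so the direction did not follow the sex bias. Cux2 is also on the list of regulators, where it was the 1 of 23 to meet the rule. Of the pericentral, periportal, redox, AHR, CAR and PXR genes outside these families 0 did so. Cux2, a repressor with female-biased expression in liver, was at 5.72 and 1.27 FPKM in SunTag and at 8.93 and 1.90 in WT. Xist was at 56.9 and 76.1 FPKM in SunTag and at 82.2 and 66.1 in WT, so it did not follow these genes. Each group has only 2 libraries, and the sources used here do not say whether libraries of the same number share an animal, day or batch.

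**Figure D5:**
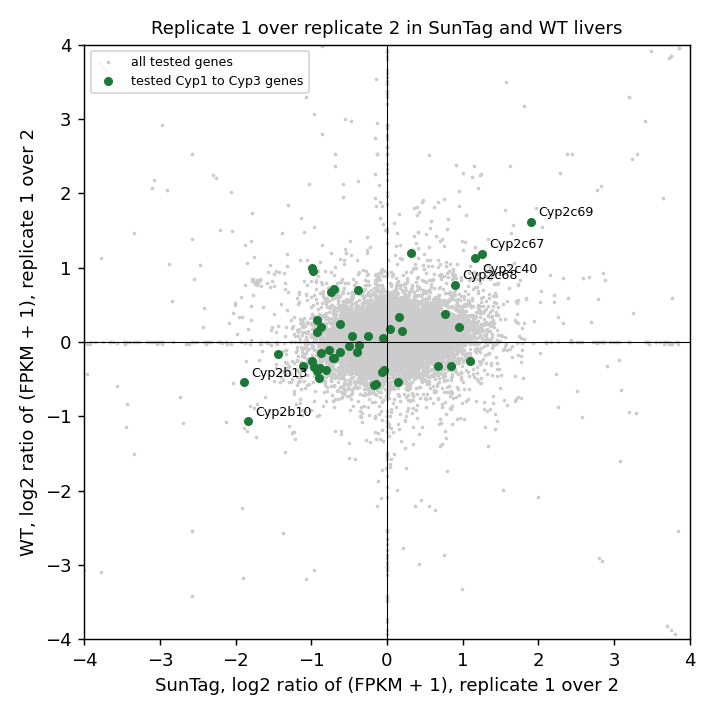
Log2 ratio of (FPKM + 1) in replicate 1 over replicate 2, in SunTag (horizontal axis) and in WT (vertical axis), with 1 point per tested gene and Cyp1 to Cyp3 genes in green. Cyp2c69 at 1.90 and 1.62, Cyp2c67, Cyp2c40 and Cyp2c68 lie to the upper right, Cyp2b10 at -1.84 and -1.07 to the lower left, and 222 of all genes lie outside the axes, which end at 4 in each direction.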

How the data were processed

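Liver RNA was purified with a column kit and its libraries followed a standard Illumina preparation, per the labels' protocols. Reads were handled with cutadapt 1.11, TopHat2 2.1.1 and Cufflinks 2.2.1 on mm9, per the submitters' processing notes. Settings, annotation, read length and use of strand are not given in the sources used here. Each table holds 1 FPKM per gene as the authors deposited it, with bounds and a status, per the file headers. Bounds were not used as errors, since 43.3% of the members' values lay outside their own. Read counts are unknown, so no counting interval can be given.

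A status other than OK in some library removed 343 rows, and rows sharing a symbol, for 244 symbols, were summed. All 59 members had the status OK. Genes with an FPKM of at least 1 in at least 1 library were tested on the log2 scale, with 1 added to the FPKM, in limma 3.58.1 under R 4.3.3. The fit used all 7 libraries, a mean for each group and a variance trend (3 residual and 1.93 prior degrees of freedom). The two-sided p-values were adjusted by Benjamini-Hochberg across the 15744 genes, with a threshold of 0.05. For low genes a log2(FPKM + 1) difference understates the change. Differences are stated against the median gene, which shifted by 0.25, 0.01 and -0.14 in Myod1_active against Myod1_control, SunTag against WT and Myod1_control against SunTag. Subfamily sums replaced their members in a second fit. No pair of tables had more than 1 nonzero value in common. Replicate numbers were not treated as pairs.

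Every member that reached an FPKM of 1 could be named, and other genes only from lists of regulators, redox and heme genes, targets, sex-biased, zonal and cell type genes. Members and lists were chosen with earlier results of these data known. Alternatives covered the pseudocount, the filter, scaling, genes under 300 bp, the variance trend, a replicate block, each library left out, and fits of only the groups compared. Promoters and coding sequences were read with biopython 1.88 from RefSeq (GRCm38.p6) and GENCODE, and motifs were searched on both strands.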

Additional observations from a re-analysis of the deposited data

How the results depend on the processing

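A set of 74 log2 differences, picked from those of the members and subfamily sums, was followed under the alternatives, and 0 of these changed direction. This does not cover the other members. For SunTag against WT, 38 of 48 members lay below the median gene, but 24 of 47 without the first SunTag library. Within the set of 74, all 419 alternative values for Myod1_active against Myod1_control and all 144 for SunTag against WT stayed short of the threshold. For Myod1_control against SunTag 131 values lost the call, 32 gained it and 429 kept their side. Members called stayed at 0 for SunTag against WT under every alternative run. For Myod1_active against Myod1_control they became 1 only without a filter on low values, Cyp2w1, listed at 0.018 FPKM in Myod1_active and 0 elsewhere, and subfamily sums called became 1 likewise. Genes called there, 40, became 23 with a pseudocount of 0.1, 547 without a filter, 20 without genes under 300 bp, 0 with only the groups compared (2425 genes at an unadjusted p under 0.05 in limma) and 49 to 119 on leaving out a library. For SunTag against WT, 20 genes became 101 without a filter, 5 without genes under 300 bp, 31 with only the groups compared and 23 to 79 on leaving out a library. For Myod1_control against SunTag, 3832 genes and 17 members became 935 and 3 without a filter, 255 and 3 with only the groups compared, and 58 to 4070 and 0 to 19 on leaving out a library. The 2 subfamily sums called became 1 without a filter, 4 with median-ratio scaling, 4 without genes under 300 bp, 1 with only the groups compared and 0 to 3 on leaving out a library. The causes of these changes were not tested, except that fewer libraries leave fewer degrees of freedom.

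Replicate numbers were not taken as pairs, and what they mark is not given in the sources used here. Across genes the deviations of same-numbered libraries from the group means correlated at 0.043 between SunTag and WT, 0.001 between Myod1_control and SunTag and 0.034 between Myod1_control and WT. With a replicate block, genes called were 23, 15 and 2928 in Myod1_active against Myod1_control, SunTag against WT and Myod1_control against SunTag, members called 0, 0 and 19, and subfamily sums called 0, 0 and 2. With groups of 1 or 2 libraries and unknown read depth, differences below about 1 SE cannot be read, and differences well above 1 SE can also fail the test. Near-identical genes depend on how shared reads were divided.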

Other observations

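The 3 pseudogene symbols left out of the set had values of their own. Cyp2d37-ps was at 45.4 FPKM in Myod1_active, 53.9 and 66.7 in Myod1_control, 25.6 and 42.4 in SunTag, and 47.7 and 39.2 in WT. Cyp2c53-ps, whose row overlaps Cyp2c29, was at 5.24 FPKM in Myod1_active, 7.31 and 9.03 in Myod1_control, 2.69 and 8.61 in SunTag, and 5.67 and 7.74 in WT. Cyp2j7-ps stayed at or below 0.331 FPKM in all libraries.

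Across the 7 libraries the Myod1_active library held the lowest value for 23 of the 48 tested members, against 7.37% of all genes, and the first SunTag library for 15, against 19.2% of all genes. The share of Cyp3a41b relative to Cyp3a41a was 0.805 in Myod1_active, 0.736 and 0.773 in Myod1_control, 0.920 and 0.929 in SunTag, and 0.944 and 0.918 in WT, for a pair whose coding sequences are 99.9% identical.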
